A study of Mus musculus with 2 samples.

Results

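The genes described here make up the machinery of fatty acid oxidation in mitochondria and peroxisomes, with a pair of its regulators and the peroxins that build peroxisomes. Of 35 genes listed, 34 had a probe set that carried their symbol alone, out of 18193 genes so represented on the array. They comprised 17 mitochondrial genes, 15 peroxisomal genes and the regulators Ppara and Pdk4. They were chosen by function, with earlier results of these data known, and each was read by the brightest of its probe sets. Cpt1b, the muscle form of carnitine palmitoyltransferase, had only a probe set with several symbols and was not analysed here. Pancreatic RNA came from male offspring of C57BL/6J dams, taken at 10 weeks of age. In the threonine-deficient group the dams ate a diet lacking enough of the essential amino acid threonine from embryonic day 12.5 to 14.5, and in the control group they ate control diet over the same days. All offspring received control diet after weaning at 3 weeks. Each group was 1 pool of RNA on 1 Affymetrix Mouse Genome 430 2.0 array, and no source used here gives the number of animals in a pool. There were therefore no replicates, and no difference below carries a test between diets.

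Mitochondrial beta-oxidation shortens fatty acids by repeated rounds of dehydrogenation, hydration, a further dehydrogenation and thiolysis. Long chains enter the matrix as carnitine esters, and electrons from the first step reach the respiratory chain through the electron transfer flavoprotein. Peroxisomes run a related pathway on very long and branched chains, and their matrix enzymes are imported by receptors and a membrane complex made of peroxins. The exocrine pancreas consists largely of acinar cells, and fat cells, which handle large amounts of fatty acid, can lie between its lobules.

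The bases upstream of 5 genes are shown as a description, chosen with the ratios known, and no result below depends on them. They are the electron transfer genes Etfa, Etfb and Etfdh, which did not all lie on the same side of 0. The others are the carnitine carrier Slc25a20, which had the lowest ratio, and Hadhb, whose upstream region is shared with its partner subunit Hadha. Each run holds the 250 bases before the RefSeq gene start in build GRCm38.p6, read on the gene's own strand. In Etfa, Etfb and Etfdh the capitals would mark the palindrome of the factor NRF1, which governs many nuclear genes of mitochondria, spelled GCGCA, any base, GCGC. In Slc25a20 they mark CGGAAG, the core bound by ETS factors, and in Hadhb they mark GGGCGG, the GC box.
Etfa: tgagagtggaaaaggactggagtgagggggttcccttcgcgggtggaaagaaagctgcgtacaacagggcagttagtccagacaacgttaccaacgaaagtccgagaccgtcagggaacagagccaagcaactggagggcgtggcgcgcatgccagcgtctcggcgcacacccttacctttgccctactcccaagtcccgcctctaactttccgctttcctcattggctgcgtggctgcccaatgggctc
Etfb: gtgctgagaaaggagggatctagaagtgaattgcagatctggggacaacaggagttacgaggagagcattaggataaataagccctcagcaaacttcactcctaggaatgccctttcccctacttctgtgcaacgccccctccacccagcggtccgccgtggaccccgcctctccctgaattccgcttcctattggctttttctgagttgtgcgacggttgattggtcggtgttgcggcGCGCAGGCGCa
Etfdh: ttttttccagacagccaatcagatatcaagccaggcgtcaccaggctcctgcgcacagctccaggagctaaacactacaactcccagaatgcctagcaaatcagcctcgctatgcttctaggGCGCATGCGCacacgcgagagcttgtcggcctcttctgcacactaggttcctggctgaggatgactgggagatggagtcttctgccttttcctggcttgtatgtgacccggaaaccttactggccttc
Slc25a20: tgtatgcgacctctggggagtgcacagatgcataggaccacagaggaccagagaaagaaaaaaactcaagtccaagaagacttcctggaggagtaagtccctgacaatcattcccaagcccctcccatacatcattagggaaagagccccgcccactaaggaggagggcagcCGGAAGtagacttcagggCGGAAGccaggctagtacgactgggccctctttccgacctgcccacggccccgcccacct
Hadhb: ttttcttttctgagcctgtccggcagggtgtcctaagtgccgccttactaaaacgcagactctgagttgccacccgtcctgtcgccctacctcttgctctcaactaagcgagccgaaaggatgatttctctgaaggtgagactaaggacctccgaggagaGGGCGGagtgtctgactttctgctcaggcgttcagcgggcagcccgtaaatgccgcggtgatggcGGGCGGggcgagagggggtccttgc
The windows lie at chr9:55512244-55512493 (- strand), chr7:43443822-43444071 (+ strand), chr3:79628768-79629017 (- strand), chr9:108661886-108662135 (+ strand) and chr5:30155003-30155252 (+ strand). The palindrome was found 11 bases before the start of Etfb and 128 bases before that of Etfdh, counted to its first base, and its letters are not in the Etfa window. CCAAT was found in all 3 of these windows. Both strands were searched in 29 of the genes, those with a window in the RefSeq table, and in 27025 genes in all. The 27025 were not limited to genes on the array or above the floor, so their shares are not a matched background. The NRF1 palindrome was in 4 of the 29, Abcd3, Etfb, Etfdh and Ppara, against 4.23% of all genes. Of these, Etfb and Etfdh had log2 ratios of −0.23 and −0.20, and Abcd3 and Ppara had 0.04 and 0.38. A link between the palindrome and the ratios was not tested. CCAAT was in 11 of the 29 against 37.5%, CGGAAG in 8 against 15.3%, and GGGCGG in 19 against 35.4%. AAGGTCA, an element read by the estrogen-related receptors, was in Acadm alone, against 4.70%. The direct repeat read by PPAR and RXR, AGGNCA, any base, AGGNCA, was in none, against 0.400%. In Slc25a20, 1 match of CGGAAG shares 3 bases with a match of GGGCGG. The starts of Hadha and Hadhb lie 272 bases apart on opposite strands, so the Hadhb window is also the upstream region of Hadha. A match is a description of letters and not a site of binding.

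The deposited signals were MAS5 intensities, in which each array is scaled as a whole, so values can be read only within the scale of their array. A floor of 264.9 signal units (the 60th percentile of whichever array had the higher one) was set before log2 was taken, and 10758 genes lay above it on at least 1 array. Of the 34 genes, 32 lay above the floor on both arrays, Pex14 lay above it only in the threonine-deficient pool, and Acox3 lay below it on both. As a check of the tissue, all 12 measured acinar markers were above the floor, among them the elastase Cela2a at 187359 in the threonine-deficient pool and 165696 in the control pool. In 3237 genes a second probe set also lay above the floor on both arrays. The error of 1 probe set, read from such pairs, had a log2 standard deviation of 0.34, and the signs of both readings matched in 52.0% of genes. This error covers differences between probe sets on the same arrays. Error common to a whole array and variation among animals are not in it. In bulk tissue, fewer cells of a type and less RNA per cell cannot be told apart.

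Like most genes above the floor, most of these genes had similar signals in both pools. In 18 of the 33 above the floor on at least 1 array the difference was under 1.2-fold. The share among all genes above the floor was 56.6%, so this count is near the background. 1 gene, Pex14, was at least 2-fold apart, where 2.16% of all genes above the floor were, and it was among the higher ones, which made up 1.28%. At 1.5-fold, 4 genes were apart, Etfa and Pex14 higher and Slc25a20 and Pex3 lower in the threonine-deficient pool, against a background of 12.6%. A count of 4 in 33 is near that background and says nothing particular about these genes. The median log2 ratio over the 34 genes was −0.13, with 21 below 0 and 12 above, against a median of 0.00 and 49.9% below 0 among all genes above the floor.

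**Figure D1:**
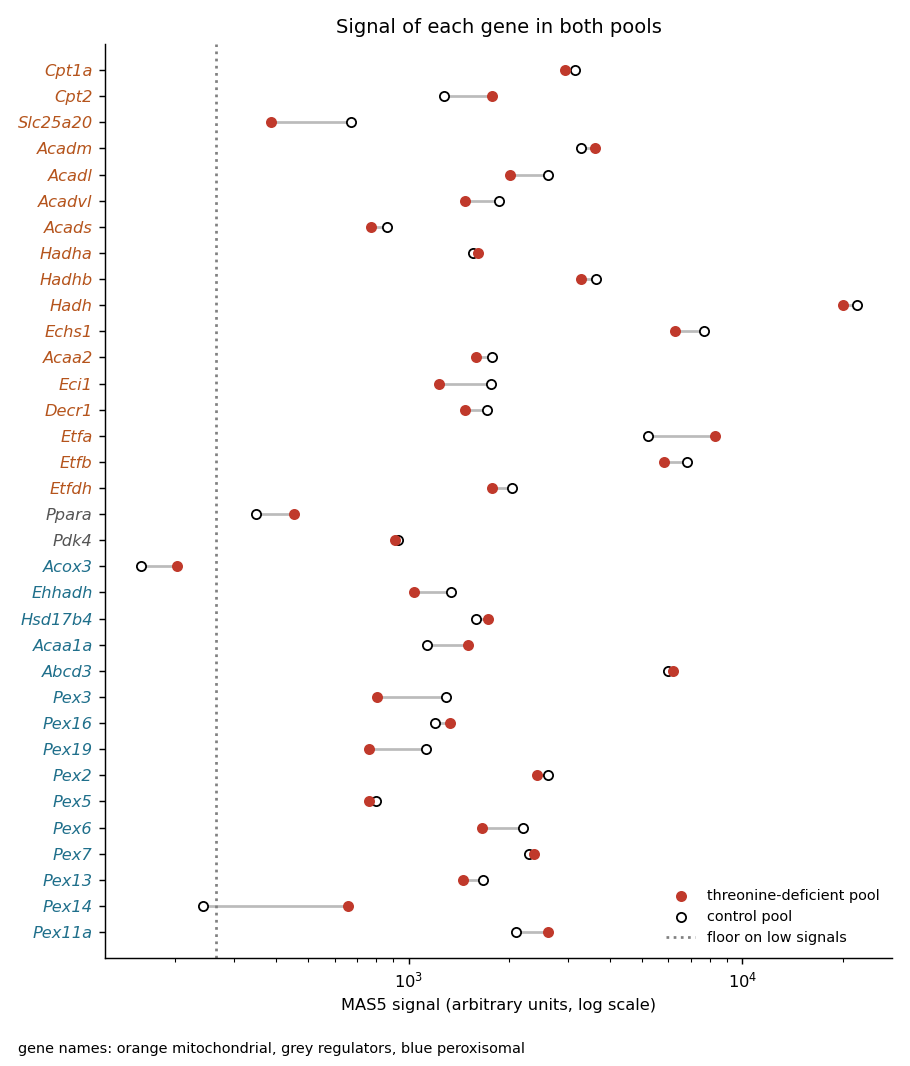
MAS5 signal of each of the 34 genes (log axis, arbitrary units) in the threonine-deficient pool (filled) and the control pool (open), with a dotted line at the floor of 264.9. Pex14 is the gene with its control signal alone below the floor, and Acox3 is below it in both pools.

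The carnitine shuttle, which carries long acyl chains into mitochondria, held ratios of both signs. Slc25a20, the carnitine/acylcarnitine carrier of the inner membrane, had a signal of 386 in the threonine-deficient pool and 670 in the control pool. It was 1.74-fold lower, or −0.80 on the log2 scale, with a local spread of 0.50. The local spread is a scaled median absolute deviation over the 500 genes nearest in signal. Its second probe set read 359 in the threonine-deficient pool and 606 in the control pool, a log2 ratio of −0.76, so both readings gave nearly the same difference. With the floor at the 75th percentile its log2 ratio was −0.39, and with a pseudocount of the size of the floor it was −0.52, both under 1.5-fold. Cpt1a, the outer membrane transferase that controls entry, had 2945 in the threonine-deficient pool and 3157 in the control pool, a log2 ratio of −0.10. Its other probe sets gave −0.57 and 0.16, on both sides of 0. Cpt2, the inner membrane transferase, was on the other side of 0 from Slc25a20, with 1773 in the threonine-deficient pool and 1279 in the control pool, a log2 ratio of 0.47.

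The acyl-CoA dehydrogenases open each round of oxidation and differ in the chain length they prefer. Acadl, for long chains, had 2008 in the threonine-deficient pool and 2612 in the control pool, and Acadvl, for very long chains, had 1475 in the threonine-deficient pool and 1870 in the control pool. Their log2 ratios were −0.38 and −0.34. Acads, for short chains, had a log2 ratio of −0.16. Acadm, for medium chains, had 3626 in the threonine-deficient pool and 3291 in the control pool, a log2 ratio of 0.14. All 4 differences were within 1.8 local spreads, and each gene had 1 probe set above the floor.

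The middle steps had ratios below 0 in 4 of 5 genes. The subunits of the trifunctional protein, Hadha and Hadhb, which share the upstream region shown above, had log2 ratios of 0.05 and −0.15. Hadha read 1616 in the threonine-deficient pool and 1561 in the control pool, and Hadhb read 3286 in the threonine-deficient pool and 3654 in the control pool. Echs1, the enoyl-CoA hydratase, had 6271 in the threonine-deficient pool and 7666 in the control pool, a log2 ratio of −0.29 where the local spread was 0.17. Acaa2, the thiolase of the matrix, had −0.16. Its other probe sets gave −0.48 and 0.10. Hadh, the hydroxyacyl-CoA dehydrogenase for short chains, is known to be abundant in islet beta cells. It read 20053 in the threonine-deficient pool and 22023 in the control pool, a log2 ratio of −0.14. Its other probe sets gave −0.07 and 0.83, and the probe set that gave 0.83 was the dimmest of them, with 885 in the threonine-deficient pool and 498 in the control pool. All 9 measured islet markers had ratios below 0, with summed signals of 144863 in the threonine-deficient pool and 176699 in the control pool, and their part in the Hadh value was not tested. The lowest were Sst at −0.92, Chga at −0.50, Pcsk1n at −0.48 as a bound from the floor, and Pyy at −0.45.

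The auxiliary enzymes for unsaturated chains were both on the lower side. Eci1, the enoyl-CoA isomerase, had 1236 in the threonine-deficient pool and 1769 in the control pool, 1.43-fold lower with a log2 ratio of −0.52. It had 1 probe set, so no second reading was at hand. Decr1, the dienoyl-CoA reductase, had 1479 in the threonine-deficient pool and 1723 in the control pool, a log2 ratio of −0.22, and −0.02 in its dimmer probe set.

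Electron transfer gave the value farthest from genes of like signal. Etfa, the alpha subunit of the electron transfer flavoprotein, had 8262 in the threonine-deficient pool and 5212 in the control pool. It was 1.59-fold higher, a log2 ratio of 0.66, which is 4.06 times the local spread of 0.16. Its partner in the dimer, Etfb, had 5817 in the threonine-deficient pool and 6806 in the control pool, a log2 ratio of −0.23. Etfdh, the membrane oxidoreductase that takes electrons from the dimer, had 1776 in the threonine-deficient pool and 2045 in the control pool, a log2 ratio of −0.20. The alpha subunit was therefore on the other side of 0 from its dimer partner, and each of the 3 genes had 1 probe set above the floor. Over 2 local spreads from 0 lay 3 of the 33 genes above the floor on at least 1 array, Etfa, Pex14 and Pex3. The share among all genes above the floor was 6.31%, so this count is near the background.

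Of the regulators, Ppara, the nuclear receptor that drives oxidation genes in fasting liver, was read near the floor. It had 453 in the threonine-deficient pool and 348 in the control pool, a log2 ratio of 0.38 where the local spread was 0.56, and its other 2 probe sets were below the floor on both arrays. Pdk4, the kinase that restrains pyruvate oxidation and is known as a target of PPAR receptors, had 913 in the threonine-deficient pool and 929 in the control pool, a log2 ratio of −0.03. Neither lay outside its local spread.

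**Figure D2:**
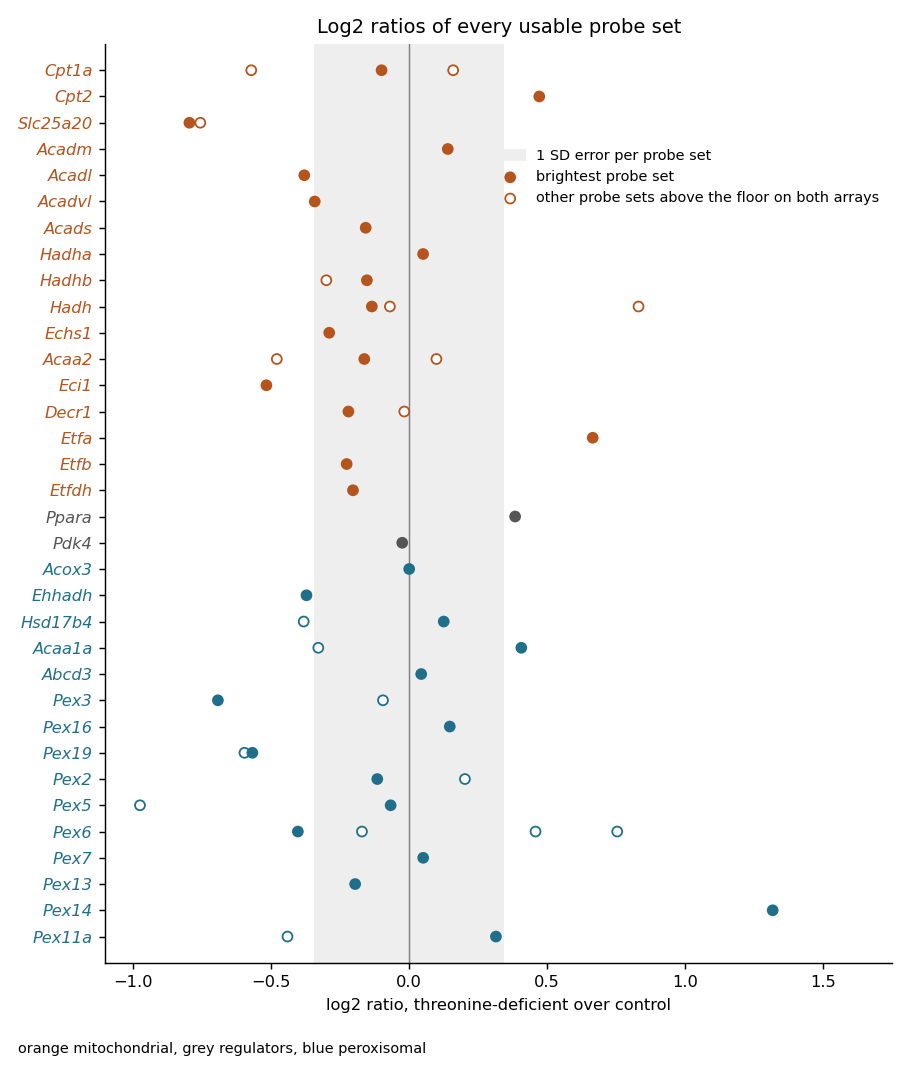
Log2 ratio (threonine-deficient over control) of the brightest probe set of each gene (filled) and of its other probe sets above the floor on both arrays (open), with a grey band of 1 standard deviation, 0.34, on each side of 0. The readings of Slc25a20 and of Pex19 lie close together, while those of Pex6, Hadh and Pex5 are spread widely; Acox3 is drawn at 0 because it is at the floor in both pools, and the value of Pex14 is a lower bound.

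In peroxisomes, the oxidation enzymes and their transporter showed no common direction. Acaa1a, the thiolase, had 1506 in the threonine-deficient pool and 1137 in the control pool, a log2 ratio of 0.41. Its second probe set gave −0.33, and both end in a suffix that marks possible sharing with other transcripts, such as that of the near-identical Acaa1b. Ehhadh, the bifunctional enzyme of straight chains and a known PPAR alpha target, had 1037 in the threonine-deficient pool and 1342 in the control pool, a log2 ratio of −0.37 where the local spread was 0.31. Hsd17b4, the bifunctional enzyme of branched and very long chains, had 0.13 in its brightest and −0.38 in its second probe set. Abcd3, the membrane transporter, was nearly level at 6181 in the threonine-deficient pool and 5997 in the control pool. Acox3, an oxidase of branched chains, read 202 in the threonine-deficient pool and 158 in the control pool, below the floor in both, so no fold is given.

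The peroxins that place proteins in the peroxisomal membrane are Pex3, Pex16 and Pex19. Pex3, the docking receptor, had 802 in the threonine-deficient pool and 1297 in the control pool, 1.62-fold lower with a log2 ratio of −0.69 where the local spread was 0.32. Its second probe set was nearly level at 594 in the threonine-deficient pool and 635 in the control pool, a log2 ratio of −0.09. Pex19, the chaperone that brings membrane proteins to Pex3, had 761 in the threonine-deficient pool and 1128 in the control pool, 1.48-fold lower with a log2 ratio of −0.57. Its second probe set gave 281 in the threonine-deficient pool and 424 in the control pool, a log2 ratio of −0.60, so both readings were lower by a like amount. A further probe set of Pex19 was at 267 in the threonine-deficient pool and 216 in the control pool, close to the floor. Pex16, which recruits Pex3 to membranes, had a log2 ratio of 0.15.

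The peroxins of matrix import went both ways and their probe sets often disagreed. Pex14, the docking protein of the import receptors, had 660 in the threonine-deficient pool and 241 in the control pool. It was at least 2.49-fold higher, since the control value lay under the floor, and it had 1 probe set in a range of signal where the local spread was 0.55. With the floor at the 75th percentile its log2 ratio was 0.37, and with a pseudocount instead of the floor it was 0.87, both under 2-fold. Pex5, the receptor for the common import signal, had 760 in the threonine-deficient pool and 796 in the control pool, a log2 ratio of −0.07. Its second probe set gave 452 in the threonine-deficient pool and 889 in the control pool, a log2 ratio of −0.97, so the size of its difference depends on the probe set. Pex6, an ATPase that recycles the receptor, had 4 probe sets above the floor, with log2 ratios of −0.40, 0.46, −0.17 and 0.75. Pex2, a ubiquitin ligase of the import complex, had −0.12 and 0.20 in its probe sets. Pex13, which docks receptors, had −0.20, and Pex7, the receptor for the second import signal, had 0.05. Pex11a, which acts in peroxisome division, had 0.31 in its brightest probe set, with 2610 in the threonine-deficient pool and 2099 in the control pool, and −0.44 in its second.

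Readings from different probe sets could be compared in 14 of the genes. All readings had the same sign in 6, Decr1, Hadhb, Slc25a20, Pex19, Pex3 and Pex5, and in each of these the sign was negative. In the other 8 the signs differed. Over the whole array, paired readings matched in sign in 52.0% of 3237 genes, so 6 in 14 is not above that background. That share rests on pairs, while some of the 14 genes had 3 or 4 readings, which makes a match harder. How often all readings of a gene are negative was not counted over the array, so the shared negative sign has no background here. By organelle, signs matched in 3 of 6 mitochondrial and 3 of 8 peroxisomal genes. The distance between the lowest and the highest reading had a median of 0.39 in mitochondrial and 0.67 in peroxisomal genes.

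The organelles were then set side by side. The 17 mitochondrial genes had a median log2 ratio of −0.16, with 13 below 0 and 4 above, and a mean of −0.14 with a standard deviation of 0.34 among genes. The 15 peroxisomal genes had a median of 0.00, with 7 below and 7 above and Acox3 at the floor. The median was −0.01 over the 14 above the floor. These 15 genes had a mean of −0.00 with a standard deviation of 0.48 among genes. The medians differed by −0.16, mitochondrial minus peroxisomal, and by −0.02 when second brightest probe sets were used. In both organelles some of the second brightest probe sets lay below the floor on both arrays and counted as 0. Within the peroxisomal genes, the enzymes and the transporter had a median of 0.04 over 5 genes and the peroxins one of −0.09 over 10. The difference between the organelles could not be tested with 1 array per diet. Genes of 1 pathway are not replicates of a diet.

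**Figure D3:**
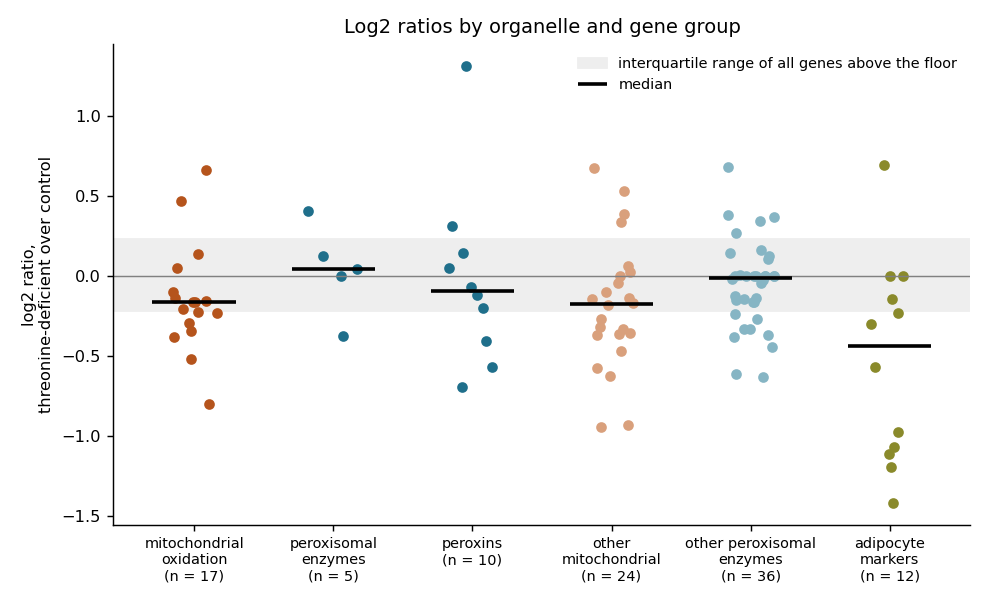
Log2 ratio (threonine-deficient over control) of each gene by group, with the group median as a bar and the interquartile range of all genes above the floor, −0.21 to 0.23, in grey. Genes below the floor on both arrays are drawn at 0. Medians are −0.16 for mitochondrial oxidation, 0.04 for peroxisomal enzymes, −0.09 for peroxins and −0.43 for adipocyte markers (−0.77 over the 10 above the floor).

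Other genes of these pathways were described from lists chosen by function, also with earlier results known. Of 24 other measured genes of mitochondrial oxidation and ketone bodies, 23 were above the floor, 17 with ratios below 0 and 6 above, and their median was −0.18 over those 23. Of 36 other measured peroxisomal enzymes and transporters, 28 were above the floor, 18 below 0 and 10 above, with a median of −0.13 over those 28. These medians of genes above the floor lay closer together than those of the 34 genes. With the genes below the floor kept at 0, they were −0.17 over 24 genes and −0.01 over 36. All 4 other measured genes listed with the peroxins, the Pex5-like gene Pex5l among them, had ratios below 0 in their brightest probe sets. Their median was −0.35, and 49.9% of all genes above the floor were below 0. Among them Pex10, a ubiquitin ligase of the import complex, was at least 1.67-fold lower, with 173 in the threonine-deficient pool and 442 in the control pool. Pex11g had −0.48, while its dimmer readings were 0.04 and −0.55. Pex26 had −0.21 and Pex5l −0.10 as a bound from the floor. Catalase (Cat), the classical peroxisomal enzyme, had 5047 in the threonine-deficient pool and 5542 in the control pool, a log2 ratio of −0.13.

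At 1.5-fold, 3 of these mitochondrial genes were lower and 1 was higher, against backgrounds of 5.36% and 7.2% of all genes above the floor. Acad9, a dehydrogenase that also serves complex I assembly, had −0.94 in its brightest probe set and 0.50 in its second. Acot2, a thioesterase of the matrix, was at least 1.90-fold lower, with 249 in the threonine-deficient pool and 504 in the control pool. Mlycd, which breaks down malonyl-CoA, the inhibitor of carnitine palmitoyltransferase, had 882 in the threonine-deficient pool and 1360 in the control pool, a log2 ratio of −0.63. Acacb, which makes malonyl-CoA at the mitochondrial surface, had 968 in the threonine-deficient pool and 605 in the control pool, a log2 ratio of 0.68. Among the peroxisomal enzymes, Amacr, a racemase of branched chains, had −0.63, and Pecr, a reductase of enoyl-CoA, −0.44. Far1, of ether lipid synthesis, had −0.61, with 0.01 and −0.48 in its next probe sets. Pipox, an oxidase of sarcosine and pipecolic acid, was at least 1.61-fold higher.

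Of the genes that bring fatty acids into the cell and activate them, Slc27a1, a fatty acid transport protein, had 904 in the threonine-deficient pool and 476 in the control pool, a log2 ratio of 0.92, with 0.35 in its second probe set. Slc27a4 of the same family had 0.55. Fabp3, a fatty acid binding protein, was at least 1.61-fold higher, and Acsl3, an acyl-CoA synthetase, at least 1.58-fold lower. This group of 7 genes above the floor had 4 ratios below 0 and 3 above. Other regulators of oxidation had a median of −0.09 over 17 genes. Esrra, the estrogen-related receptor alpha, had 546 in the threonine-deficient pool and 937 in the control pool, a log2 ratio of −0.78. Its second probe set gave 0.21 as a bound from the floor in the control pool. The corepressor gene Nrip1 had −0.71, while its next probe sets gave 0.04 and, as a bound from the floor in the control pool, 0.44. The coactivator gene Ppargc1b had 0.51 and the deacetylase gene Sirt3 0.45.

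Genes known as PPAR alpha targets had 5 ratios below 0 and 3 above among 8 above the floor. Plin2, the coat protein of lipid droplets, had 577 in the threonine-deficient pool and 1150 in the control pool, 1.99-fold lower. Angptl4, an inhibitor of lipoprotein lipase, had −0.77, and Acot1, a cytosolic thioesterase, was at least 1.73-fold lower. Creb3l3, a transcription factor of fasting, had 0.29. Several of these genes are also expressed in fat cells, and so are those of mitochondrial oxidation.

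Fat cell markers were lower in the threonine-deficient pool: 9 of the 10 above the floor had ratios below 0. Of these, 4 were at least 2-fold lower, against 0.874% of all genes above the floor. The summed signal of the 12 measured markers was 24663 in the threonine-deficient pool and 44405 in the control pool. Car3, a carbonic anhydrase abundant in fat, had 5434 in the threonine-deficient pool and 14501 in the control pool, and the adipokine gene Adipoq had 855 in the threonine-deficient pool and 1787 in the control pool. Cidec and Lipe, of lipid droplets and lipolysis, were at least 2.28-fold and at least 2.16-fold lower. Lep and Cidea lay below the floor in both pools. Ucp1, of brown fat, was the marker with a ratio above 0, at 430 in the threonine-deficient pool and 159 in the control pool. The part of fat cells in the mitochondrial values was not tested.

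Markers of other cell types were read in the same way. Duct markers above the floor went both ways, 3 above 0 and 2 below, with a median of 0.30 over those 5 and sums over 7 measured of 13597 in the threonine-deficient pool and 12820 in the control pool. Among them Car2, a carbonic anhydrase, had 1541 in the threonine-deficient pool and 349 in the control pool, 4.42-fold higher. The duct transcription factor gene Sox9 was 1.86-fold higher, the keratin gene Krt19 had a log2 ratio of 0.30 and the mucin gene Muc1 one of −0.12. Endothelial markers were higher in 6 of 6, with summed signals of 4009 in the threonine-deficient pool and 3042 in the control pool. Pecam1 had a log2 ratio of 0.57, Tek 0.42, Cdh5 0.25 and Kdr 0.36 as a bound from the floor. Lymphoid and macrophage markers were higher in 4 of the 4 above the floor, with sums over 7 measured of 5299 in the threonine-deficient pool and 3669 in the control pool. They were Adgre1 at 0.67, Csf1r at 0.51, Ptprc at 0.42 and Cd68 at 0.38. The lymphoid markers Cd79a, Cd3e and Cd3g all lay below the floor on both arrays, so no direction can be given for them. Of 12 acinar markers 11 had ratios above 0, with a median of 0.13. Cela2a had 0.18, Ctrl and Ctrb1 0.16 each, and the transcription factor gene Ptf1a −0.27. Hepatocyte markers, of interest because Ehhadh is abundant in liver, were below the floor in 5 of 7, and the others were Ttr at −0.25 and Alb at 0.20. Skeletal muscle markers were below it in 6 of 7. The exception in muscle was Ckm, with 508 in the threonine-deficient pool and 307 in the control pool. What part these cells had in the values of the 34 genes was not tested.

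**Figure D4:**
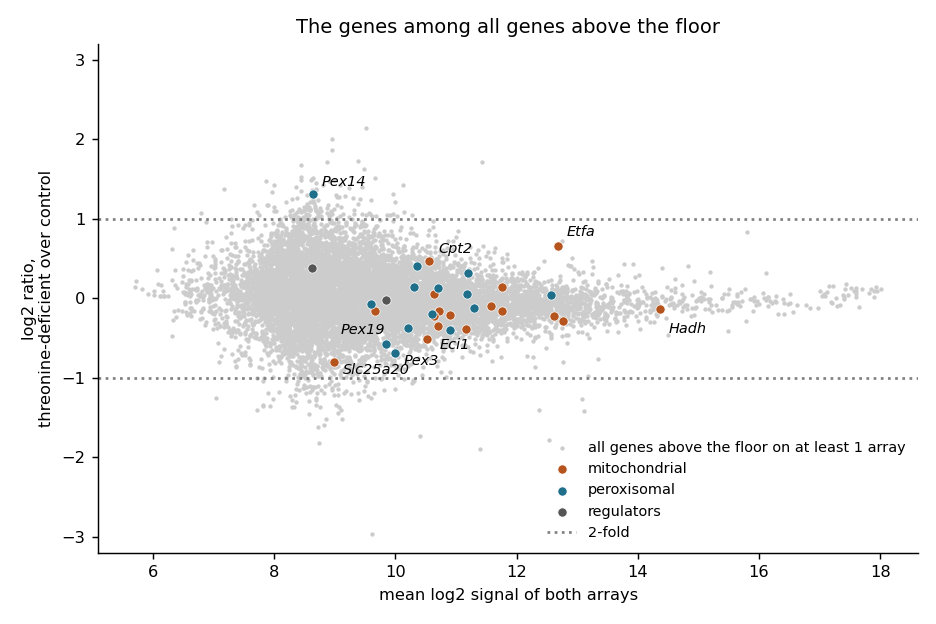
Log2 ratio (threonine-deficient over control) against the mean log2 signal of both arrays, for 10758 genes above the floor on at least 1 array (grey) and for the 33 of the genes described here that lie among them (coloured by organelle), with dotted lines at 2-fold. Etfa lies apart from genes of like signal at a log2 ratio of 0.66, while Slc25a20 at −0.80 lies where ratios scatter more widely.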

How the data were processed

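Pancreatic RNA of 2 pools was measured on 1 array each. The deposited values are a linear signal intensity per probe set, which the authors made with MAS5 (version unstated), per the submitters' processing notes. With 2% trimmed at both ends, the mean signal was 500.0 on either array, so total mRNA cannot be compared between pools. Of 45101 probe sets, 64 were controls and were left out of the gene comparisons, 34945 carried 1 gene symbol, 932 several and 9160 none. Gene IDs matched 34741 to RefSeq (GRCm38.p6), all 34 genes described here among them. Where a gene had several probe sets, the brightest by mean log2 signal was used. Signals were raised to the floor, and log2 ratios are threonine-deficient over control. No test between diets was possible with 1 array per group, and that number limits the precision.

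The genes, lists, roles and folds were chosen with earlier results of these data known. Of each further list, up to 4 genes above the floor with the largest absolute ratios are named, and Cat whatever its value; Ucp1 was named after its value was seen. Targeting signals in proteins were planned and not analysed here. The procedure was tested on simulated data. Python 3.11.15, pandas 2.3.3 and statsmodels 0.14.6 (lowess, fraction 0.3) were used.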

Additional observations from a re-analysis of the deposited data

How the results depend on the processing

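The alternatives were median centring, removal of a loess trend, no floor, floors at percentiles 50 and 75, a pseudocount instead of a floor, the median of all readings of a gene, probe sets without a sharing suffix, and the second brightest probe set. The mitochondrial median stayed below 0 under these and with Pdk4 added, from −0.16 to −0.07, and the peroxisomal median ranged from −0.09 to 0.04, the lower end with peroxins alone and the upper end with no floor, among others. The difference of the medians ranged from −0.21 to −0.02. The value of −0.02 came with the second brightest probe sets, where the mitochondrial median was −0.07 over 9 genes and the peroxisomal −0.05 over 12. These medians include values of 0 from probe sets below the floor on both arrays. They were those of Cpt2, Acadl and Etfdh in mitochondria and of Acox3, Abcd3 and Pex13 in peroxisomes, and such values carry no direction. With the floor at percentile 75, 0 genes were at least 2-fold and 2 at least 1.5-fold apart, and the same counts, 0 and 2, came with the pseudocount. Second brightest probe sets, at hand for 22 genes, gave 0 at least 2-fold apart, and 6 of 9 mitochondrial genes below 0. Pex14 was not among the 22, so it was not read again. The mitochondrial genes not below 0 were Cpt2, Acadl and Etfdh, all at 0 from the floor. Of 292 values of single genes under these alternatives, 271 moved by less than the error of 1 probe set and 21 by more, among them those of Pex5, Pex6, Acaa1a and Pex11a. Most alternatives reused the same probe set of a gene, so most values had little room to move. With the second brightest probe set, the values of Cpt1a, Hsd17b4, Acaa1a, Pex3, Pex5, Pex6 and Pex11a moved by more than this error. So did those of Cpt2, Acadl and Ppara, whose second probe sets lay below the floor on both arrays. No paired analysis was possible because each group had 1 array. Low signal limits Ppara, Acox3 and Pex14.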

Other observations

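Genes of general mitochondrial content, such as import receptors, chaperonins and subunits of the respiratory chain, were also slightly on the lower side in the threonine-deficient pool. Of 17 measured, 13 had log2 ratios below 0 and 4 above, with a median of −0.10, and none was 1.5-fold apart. Among all genes above the floor 49.9% were below 0, but that share is not matched for signal. Removal of the loess trend moved the bright genes Etfb from −0.23 to −0.16 and Hadhb from −0.15 to −0.09. The values of the content genes are given without that removal. Tomm22, of the outer membrane import complex, had 1621 in the threonine-deficient pool and 2099 in the control pool, a log2 ratio of −0.37. The chaperonin gene Hspd1 had −0.26. Hspe1 had −0.28 in its brightest probe set and 0.12 in its second. Tfam, which maintains mitochondrial DNA, had −0.24, with 0.25 as a bound from the floor in its dimmer probe set. Their median of −0.10 compares with −0.16 in the 17 genes of mitochondrial oxidation, and the difference was not tested.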
